A study of Bombyx mori with 3 samples.

Results

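Cyp18a1, Cyp9a20 and Cyp6ae2 are cytochrome P450 genes of the silkworm, Bombyx mori, and were taken by their identifiers in the deposited tables (GeneID_100036578, GeneID_100036579 and GeneID_100036580): 3 of 17072 genes, and 3 of 44 P450 genes matched by name. The reference gene table gives these identifiers the same symbols. It also lists CYP18A1 as a synonym of the ribosomal gene RpP0 and CYP6AE2 as a synonym of the P450 gene cyp6a8, so no member was matched by synonym. The libraries came from brains of wild-type (WT) larvae of strain P50, taken on day 3 of instar 5 from animals reared on mulberry leaves. There were 3 libraries in 1 group, with total counts from 17935488 to 23895452. The labels name no treatment and no contrast, and do not say whether the brains of several animals were pooled, so the spread between libraries may be partly technical.

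Cytochromes P450 are heme enzymes that insert an oxygen atom into small lipophilic molecules. Most insect P450s sit in the endoplasmic reticulum and draw electrons from NADPH-cytochrome P450 reductase (Cpr). Some serve hormone metabolism, such as the enzymes that build and degrade the moulting hormone 20-hydroxyecdysone, while others act on plant toxins and insecticides. CYP18A1 is an ecdysteroid 26-hydroxylase that inactivates the moulting hormone. CYP9A and CYP6AE enzymes are known in other Lepidoptera for the metabolism of plant compounds and insecticides.

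All 3 genes were expressed in every library, at levels that did not overlap between genes. Expressed here means a TPM (transcript level per gene length, scaled to a sum of 1000000 per library) of 1 or more in every library, which 58.1% of all genes reached. Cyp9a20 was highest, Cyp6ae2 intermediate and Cyp18a1 lowest, in each of the 3 libraries. Cyp18a1 and Cyp9a20 stood at nearly the same level in every library, while Cyp6ae2 was lowest in replicate 1 and highest in replicate 2.

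**Figure D1:**
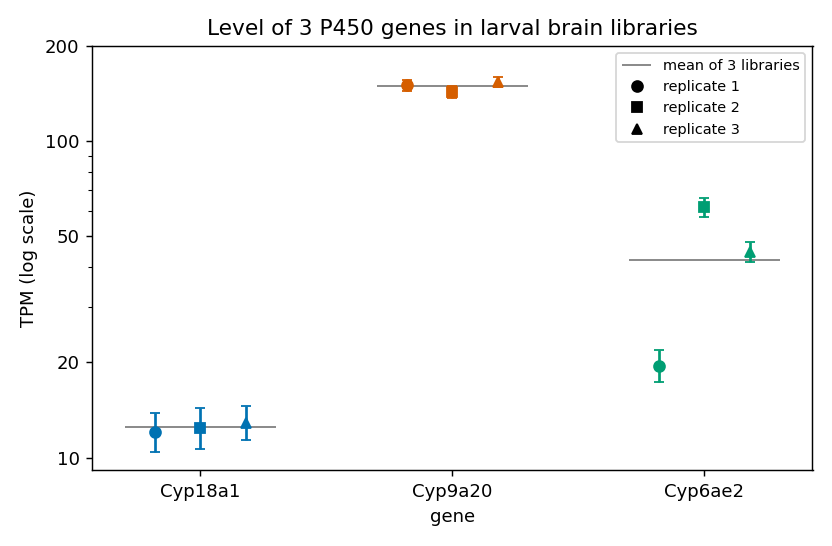
TPM (log scale) of Cyp18a1, Cyp9a20 and Cyp6ae2 in the 3 larval brain libraries. Symbols are libraries, error bars are exact 95% counting intervals and grey lines are means; Cyp6ae2 is the gene whose libraries lie apart, from 19.5 to 61.9 TPM.

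Cyp18a1 was at 12.0, 12.4 and 12.9 TPM in replicates 1, 2 and 3, from 202, 182 and 249 counts. The mean was 12.4 ± 0.419 TPM (SD, n = 3). The 3 values lay within each other's exact (Clopper-Pearson) 95% intervals, which were 10.4 to 13.8 TPM, 10.7 to 14.3 TPM and 11.3 to 14.6 TPM and cover counting error only. The gene ranked 7565, 7783 and 7716 among all genes in the same order of libraries, which put 55.7%, 54.4% and 54.8% of the other genes below it. Its mean level was above the median of all genes (6.59 TPM) and below the median of the genes expressed in every library (35.3 TPM).

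Counts of Cyp18a1 did not differ over the 3 libraries beyond counting error in a chi-square test of homogeneity with library sizes scaled by TMM (trimmed mean of M-values; adjusted p = 0.93, Benjamini-Hochberg over the 11373 genes whose counts averaged 5 or more). The same test called 54.3% of those genes. A missed threshold does not show that the libraries were equal. The highest library stood 1.04-fold above the lowest after TMM scaling, and the coefficient of variation of the scaled CPM (counts scaled to 1000000 per library) was 1.96%, below the 6.34% to 7.41% that counting alone gives in a single library. The genewise biological coefficient of variation (BCV, the spread left after counting error) was at the lower limit of the estimate, 0.00988, as it was for 2191 of 11373 genes.

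Genes of other enzymes that act on ecdysteroids spanned a wide range of levels in the same brains. Of 8 genes listed for ecdysteroid synthesis 6 were matched, and 4 of these were expressed in every library, a share near the 58.1% of all genes. Cyp314a1, the 20-hydroxylase that makes 20-hydroxyecdysone from ecdysone, measured 22.4, 24.3 and 28.4 TPM in replicates 1, 2 and 3. Cyp302a1, a 22-hydroxylase, measured 4.48, 4.56 and 4.49 TPM. The 2-hydroxylase gene Cyp315a1 measured 2.53, 3.64 and 2.28 TPM. Cyp314a1 was therefore above Cyp18a1 in each library, and Cyp302a1 and Cyp315a1 were below it. Cyp307a1, the spook gene of an early step, measured 0.957, 5.02 and 1.54 TPM, so only replicate 1 fell short of 1 TPM. Nvd, the cholesterol desaturase that starts the pathway, had 1, 1 and 3 counts. The homogeneity test, which called 54.3% of all genes tested, called 4 of the 5 synthesis genes with enough counts, all but Cyp302a1 (adjusted p = 0.98).

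Among genes of ecdysteroid conversion, 3 of 4 listed names were matched. LOC692444, with the synonym EPP (ecdysteroid-phosphate phosphatase, which frees ecdysteroids from stored conjugates), measured 30.3, 32.8 and 32.1 TPM, above Cyp18a1 in every library. It was not called by the homogeneity test either (adjusted p = 0.35). LOC100862708, with the synonym EO (ecdysone oxidase), had 3, 0 and 3 counts, and a count of 0 in replicate 2 allows up to 0.167 CPM. Of 10 genes listed for the ecdysone response, among them the receptor EcR and its partner USP, 7 were matched. All 7 were expressed in every library (58.1% of all genes were). The homogeneity test called 6 of them (54.3% of all genes tested were called). None of the 7 had a gap of 2-fold or more between its highest and lowest library. Of all genes tested 13.6% did, a share from which so few genes cannot be told apart.

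Cyp18a1 is adjacent to Cyp306a1, the 25-hydroxylase of ecdysteroid synthesis, in the order of genes of the reference table. Cyp306a1 was at 13.8, 19.6 and 22.7 TPM in replicates 1, 2 and 3, and its counts differed over libraries (adjusted p = 5.7e-08, a gap of 1.60-fold). The TPM of Cyp306a1 was 1.15, 1.58 and 1.76 times that of Cyp18a1 in the same order. The pair thus stood close in replicate 1 and farther apart in the other libraries. On its far side from Cyp306a1, the second gene, LOC101740852, had a mean of 0.0993 TPM; 2 other genes beside Cyp18a1 in the reference order were not analysed here.

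Cyp9a20 was at 150.4, 143 and 154 TPM in replicates 1, 2 and 3, from 2316, 1931 and 2728 counts, with a mean of 149 ± 5.32 TPM (SD, n = 3). Its exact 95% counting intervals were 144 to 157 TPM, 137 to 149.8 TPM and 148 to 160 TPM, so that replicates 1 and 2 overlapped, as did 1 and 3 and, narrowly, 2 and 3. Cyp9a20 ranked 988, 1039 and 976 among all genes, with 94.2%, 93.9% and 94.3% of the other genes below it. Its counts were not called by the homogeneity test (adjusted p = 0.15; gap 1.06-fold), but with total counts in place of TMM they passed (adjusted p = 0.049). The BCV was 0.0244, against a median of 0.0537 for the 1000 genes nearest to it in mean count, of which 20.3% had a lower value.

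Cyp9a20 lies beside Cyp9a19 and Cyp9a21 in the reference order, and these CYP9A genes kept the same order of levels in every library. The reference also lists CYP9A19 as a synonym of Cyp9a21, so both are named here by symbol. Cyp9a19 measured 282, 258 and 269 TPM, which was 1.88, 1.80 and 1.75 times the level of Cyp9a20. Cyp9a21 measured 97.2, 88.2 and 93.2 TPM, which was 0.647, 0.615 and 0.607 times that level. All of them were lowest in replicate 2, by no more than 1.12-fold after TMM scaling. The homogeneity test called Cyp9a19 (adjusted p = 1.5e-05) and Cyp9a21 (adjusted p = 0.0013). The CYP9 family held 5 matched genes, of which 4 were expressed in every library; Cyp9g3 led it with 935 ± 63.7 TPM (SD, n = 3) and Cyp9a22 had 2, 2 and 0 counts. On the other side of Cyp9a20 the genes LOC119629803 and LOC119629818 had means of 0.0267 and 0.0412 TPM. Whether related copies such as these exchange reads in the counting was not measured.

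**Figure D2:**
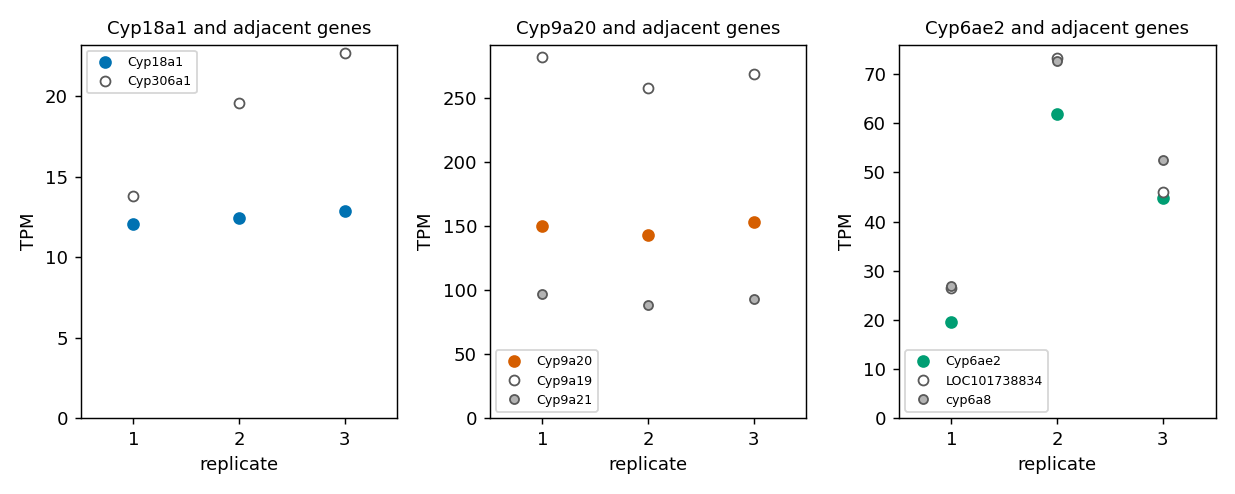
TPM per library of Cyp18a1, Cyp9a20 and Cyp6ae2, each with the genes within 2 places of it in the reference order that had a mean of at least 1 TPM. The genes around Cyp6ae2 are lowest in replicate 1 and highest in replicate 2, while the CYP9A genes keep nearly the same level in all libraries.

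Cyp6ae2 was at 19.5, 61.9 and 44.7 TPM in replicates 1, 2 and 3, from 296, 822 and 782 counts, with a mean of 42.0 ± 21.3 TPM (SD, n = 3). The exact 95% counting intervals, 17.4 to 21.9 TPM, 57.7 to 66.3 TPM and 41.6 to 48.0 TPM, were separate. The gene ranked 6624 in replicate 1, 2867 in replicate 2 and 4082 in replicate 3, so that 61.2%, 83.2% and 76.1% of the other genes were below it. Its place among the 44 P450 genes was 14, 8 and 12, while Cyp9a20 held places 3, 5 and 4 and Cyp18a1 places 17, 18 and 18.

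The counts of Cyp6ae2 differed over the libraries beyond counting error (homogeneity test, adjusted p = 3.7e-66). Replicate 2 stood 3.13-fold above replicate 1 after TMM scaling. A gap of 2-fold or more was found in 13.6% of the genes tested, and a gap of that size with replicate 1 lowest in 8.32%. The BCV was 0.538, above that of 98.7% of the 1000 genes nearest in mean count, whose median was 0.0714. Without replicate 1 the gap was 1.41-fold, the BCV 0.240 and the adjusted p 9.3e-11. Replicate 1 also carries much of the spread of the table as a whole. The test called 2001 genes without replicate 1, 5205 without replicate 2 and 5002 without replicate 3. Over the 3 libraries it called 6179.

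**Figure D3:**
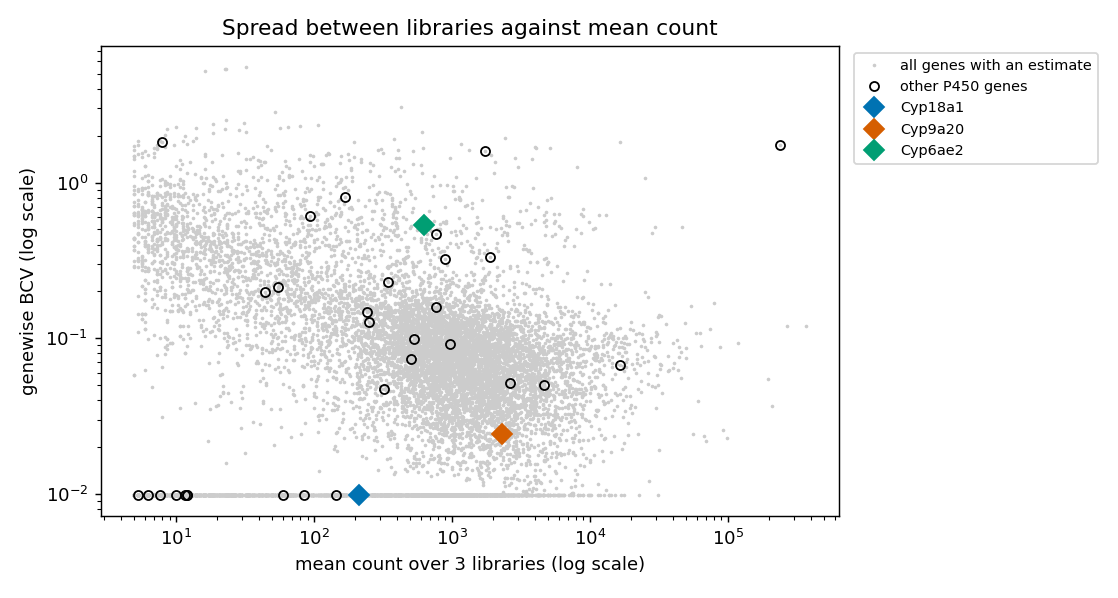
Genewise BCV (log scale) against the mean count over 3 libraries (log scale) for 11373 genes, with P450 genes as open circles and the 3 members as diamonds. Cyp6ae2 lies at 0.538, Cyp9a20 at 0.0244 and Cyp18a1 on the lower limit of 0.00988.

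The genes on both sides of Cyp6ae2 had the same order of libraries. LOC101738834, which has no descriptive symbol in the reference, measured 26.4, 73.3 and 46.0 TPM in replicates 1, 2 and 3, with a gap of 2.74-fold (adjusted p = 3.8e-95). The P450 gene cyp6a8 measured 26.8, 72.7 and 52.5 TPM, with a gap of 2.68-fold (adjusted p = 2.3e-63). Both were above Cyp6ae2 in each library. The level of cyp6a8 was 1.38 times that of Cyp6ae2 in replicate 1 and 1.17 times in replicates 2 and 3. Whether Cyp6ae2 and cyp6a8 exchange reads was likewise not measured. Next to LOC101738834, LOC119629670 had a mean of 0.0382 TPM; LOC134200366, next to cyp6a8, was not analysed here. The other genes with a Cyp6ae symbol were at or near 0: Cyp6ae7 and Cyp6ae9 had no count in any library, and Cyp6ae22 had 0, 2 and 10 counts.

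The levels of the members relative to each other followed from these patterns. Cyp9a20 was 12.5, 11.5 and 11.9 times as high as Cyp18a1 in TPM in replicates 1, 2 and 3, a mean difference of 3.48 ± 0.0542 (SD, n = 3) on the log2(TPM + 1) scale. Cyp9a20 was 7.71, 2.31 and 3.44 times as high as Cyp6ae2, a difference of 1.95 ± 0.859. Cyp6ae2 was 1.62, 4.99 and 3.47 times as high as Cyp18a1, a difference of 1.53 ± 0.805. Each order held in 3 of 3 libraries. An exact sign-flip permutation test (two-sided, over 3 pairs of genes) gave p = 0.25 and adjusted p = 0.25 for each, the smallest that 3 libraries allow. The log2(TPM + 1) scale understates differences of low genes. The gene lengths implied by counts per TPM were alike, 0.919 times that of Cyp18a1 for Cyp9a20 and 0.905 times for Cyp6ae2.

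Among the 44 matched P450 genes, 24 were expressed in every library (54.5%, against 58.1% of all genes) and 17 stayed under 1 TPM in every library. Cyp4g25, of a family whose Drosophila member makes cuticular hydrocarbons in oenocytes, had the highest mean, carried by replicates 2 and 3 (17071 and 21774 TPM) and not by replicate 1 (57.4 TPM). It was followed by Cyp9g3, Cyp9a19, Cyp9a20 and CYP341B1. In order of mean TPM Cyp9a20 was place 4, Cyp6ae2 place 11 and Cyp18a1 place 18.

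Some of the members' neighbours in this order cannot be separated from them. Below Cyp9a20, CYP341B1 measured 80.1, 159.9 and 118 TPM, a range that includes all values of Cyp9a20, while Cyp9a19 above it did not overlap. CYP367A1 (0.517, 57.0 and 87.1 TPM) and CYP354A1 (36.3, 42.8 and 44.8 TPM), next above and below Cyp6ae2, both overlapped its range. The TPM values of Cyp18a1 overlapped neither those of Cyp4m9 above it (16.7, 14.3 and 19.3 TPM) nor those of LOC100127130 below it (10.1, 10.3 and 9.99 TPM). The synonym of LOC100127130 is cyp6u1. Counting intervals of these neighbours were not compared with those of Cyp18a1.

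**Figure D4:**
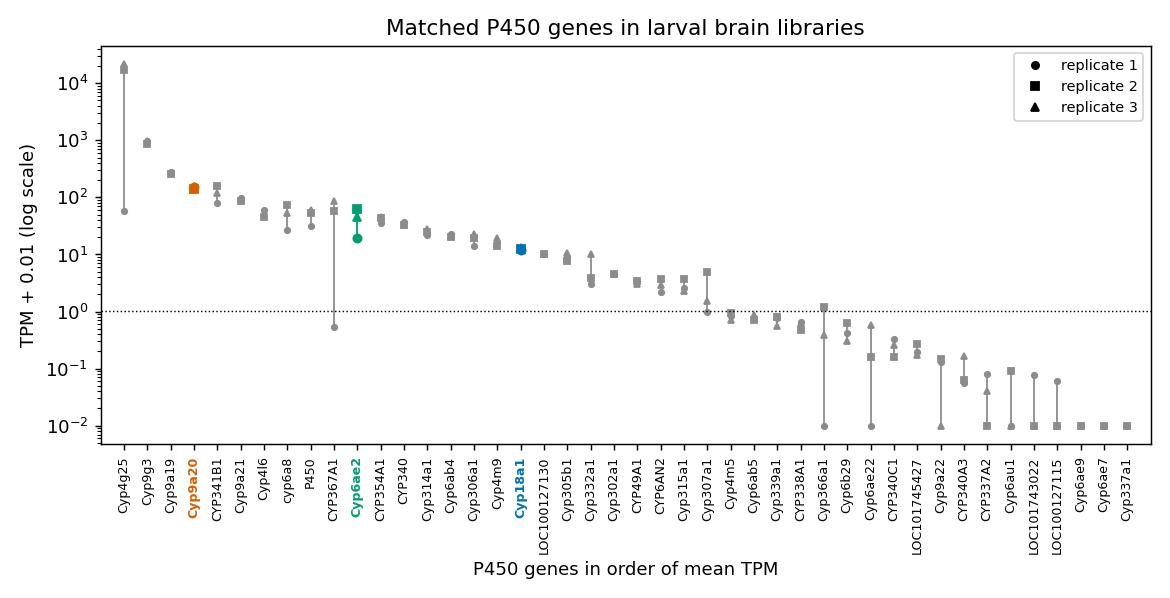
TPM + 0.01 (log scale) of 44 P450 genes in each of the 3 libraries, in order of mean TPM, with the 3 members in colour and a dotted line at 1 TPM. Vertical lines join the lowest and highest library; Cyp4g25 and CYP367A1 span far more than Cyp6ae2, and Cyp18a1 and Cyp9a20 span almost nothing.

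Of 34 P450 genes with enough counts, the homogeneity test called 20, a share near the 54.3% of all genes tested. A gap of 2-fold or more was found in 9 of the 34, against 13.6% of all genes tested. Such a gap with replicate 1 lowest was found in 7 of the 34, against 8.32% of all genes tested. Cyp6ae2 is among these 7. The CYP6 family held 11 matched genes with a median of 0.768 TPM, and 5 were expressed in every library; cyp6a8 and Cyp6ae2 were its highest members. The median of the 5 CYP9 genes was 149 TPM, which is the value of Cyp9a20, and that of the 7 CYP4 genes was 0.825 TPM.

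The electron donor Cpr was one of the genes with replicate 1 lowest. It stood at 100.02, 219.6 and 237 TPM in the 3 libraries, a gap of 2.31-fold, and was called by the homogeneity test. Other families of detoxification enzymes were part expressed. Of 20 glutathione S-transferase genes 16 were expressed in every library, of 40 UDP-glycosyltransferase genes 14, and of 16 carboxylesterase genes 8, against 58.1% of all genes. A gap of 2-fold or more with replicate 1 lowest was found in 5 of 17, 7 of 24 and 6 of 14 of these genes with enough counts, against 8.32% of all genes tested. Among 12 juvenile hormone genes, 6 were expressed in every library and 0 of 9 tested had such a gap with replicate 1 lowest.

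Several marker lists of other cell types had, like Cyp6ae2, their lowest summed level in replicate 1, though not every gene in them did. For epidermis, trachea and oenocytes, all 5 listed genes had a gap of 2-fold or more with replicate 1 lowest, against 8.32% of genes tested. The list was chosen with earlier results of these data known, so this count cannot serve as a test. The 5 genes summed to 1201, 22227 and 25169 TPM in the 3 libraries in order. Cyp4g25 makes up most of the sums of replicates 2 and 3; the other 4 genes summed to 1143, 5157 and 3395 TPM. Hemocyte markers summed to 76.4, 118 and 221 TPM with 3 of 4 expressed and Pp at 0. For this and the other lists, the share of all genes expressed in every library was 58.1%. Of the 2 corpora allata markers, the gene with symbol P450 (CYP15C1, an epoxidase of juvenile hormone synthesis) measured 31.3, 53.2 and 61.1 TPM and makes up nearly all of their sum of 31.8, 54.0 and 61.3 TPM. Jhamt was under 1 TPM and was lowest in replicate 3 (0.488, 0.837 and 0.151 TPM). Prothoracic gland markers, which are the synthesis genes above without Cyp314a1, summed to 21.8, 32.8 and 31.0 TPM, with 3 of 5 expressed. Within that list Cyp306a1 and Cyp307a1 were lowest in replicate 1 after TMM scaling, and Cyp302a1 and Cyp315a1 in replicate 3.

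Muscle markers summed to 2822, 6821 and 2718 TPM with 4 of 4 expressed (58.1% of all genes were). A1 (1862, 4636 and 1907 TPM) and MLC-2 (889, 2126 and 753 TPM) were highest in replicate 2 and carried the sum, while Tm (65.1, 55.5 and 53.5 TPM) and A2 (5.31, 3.98 and 4.21 TPM) were highest in replicate 1. Fat body and hemolymph markers summed to 2.84, 4.03 and 5.70 TPM with 1 of 5 expressed and VG at 0. Midgut (0.315 to 0.364 TPM, 0 of 5 expressed, Apn1 at 0) and silk gland markers (0.480 to 0.950 TPM, 0 of 6 expressed) were near 0. Neuron markers summed to 509.6, 508 and 533 TPM with 5 of 5 expressed, and glia markers to 253, 249 and 258 TPM with 4 of 4 expressed. The summed levels of neuron and glia markers were thus nearly the same in every library, as were Cyp18a1 and Cyp9a20. Single markers did vary: the homogeneity test called 3 of 5 neuron and 2 of 4 glia genes, against 54.3% of all genes tested. Of these lists 2 neuron genes and 1 glia gene were lowest in replicate 1 after TMM scaling. No gene in either list had a gap of 2-fold or more, against 13.6% of all genes tested, a share from which lists this short cannot be told apart. The part of other cell types in the values of Cyp6ae2 was not tested. In bulk tissue, fewer cells of a type and less RNA per cell cannot be told apart.

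**Figure D5:**
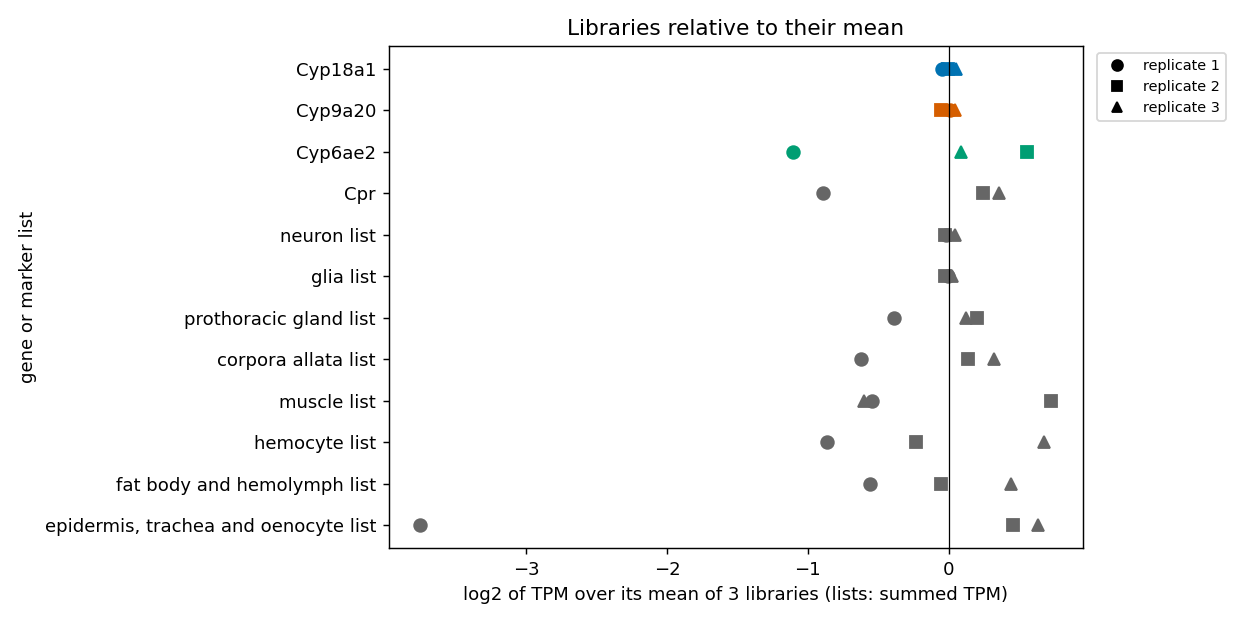
TPM of each member and of Cpr, and summed TPM of each marker list, as log2 of the value over its mean of 3 libraries. Cyp18a1, Cyp9a20 and the neuron and glia lists lie near 0 in every library, while Cyp6ae2, Cpr and the epidermis, trachea and oenocyte list are lowest in replicate 1.

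The named genes nearest to each member in level and pattern were found by Euclidean distance of log2(TPM + 1) over 3 libraries, among 2248 genes with a symbol other than a locus number. For Cyp6ae2 they were Y-c (21.6, 73.0 and 47.5 TPM, distance 0.287) and Y-fa (16.8, 72.4 and 49.8 TPM, distance 0.337), of the yellow family, and the microRNA gene Mir2838 (28.3, 64.6 and 42.9 TPM, distance 0.519), whose reads cannot be told apart from those of any overlapping gene. For Cyp9a20 they were Loqs (distance 0.00625), a double-stranded RNA-binding protein in Drosophila, Pabn1 (distance 0.0797) and Srp54 (distance 0.0800), a subunit of the signal recognition particle. For Cyp18a1 they were SC1 (distance 0.0651), the neuropeptide receptor gene NGR-B3 (distance 0.0980) and Nanoso (distance 0.107). A likeness over 3 libraries describes these libraries only.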

How the data were processed

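RNA-seq of larval brain gave raw counts per gene, deposited as whole numbers, and deposited TPM values, which sum to 1000000 in each library. Trim Galore, HISAT2 and featureCounts were used, per the submitters' processing notes; the sources used here give no build, annotation or strand setting. Counts per TPM had the same proportions between libraries for 100% of 12241 genes (relative tolerance 1e-06). Names and gene order came from a RefSeq gene table (ASM3026992v2), which matched 14946 of 17072 identifiers. The members and lists were chosen with earlier results of these data known.

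The homogeneity test was a chi-square test of each gene's counts against TMM-scaled library sizes (Benjamini-Hochberg, threshold 0.05); genes needed a mean count of 5. BCV came from edgeR 4.0.16 with an intercept only and no shrinkage; DESeq2 1.42.0 gave alternatives. Gaps between libraries took counts under 3 as 3. The steps were tested on simulated data. Computing used R 4.3.3, Python 3.11.15 and SciPy 1.17.1. Named genes are the members, the 5 highest P450 genes, the P450 next above and below each member, 2 reference neighbours on each side, the 3 nearest named genes, and the ecdysteroid lists; others, among them CYP6AE genes and Cyp9a22, were chosen after their values were seen. The highest genes of other lists are not all named.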

Additional observations from a re-analysis of the deposited data

How the results depend on the processing

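Of 115 alternative values 100 were counted as unchanged. For mean TPM and percentiles this meant a move smaller than the SD between libraries. For tests it meant the same side of the threshold, and for differences between members the same direction. For gene counts, BCV and gaps larger moves also counted as unchanged, such as 5002 called genes without replicate 3 against 6179 over 3 libraries. The order of the members held under every pseudocount tried, on CPM and without each replicate. Cyp9a20 passed the homogeneity test with total counts (adjusted p = 0.049). On CPM the percentile among all genes was 53.2 for Cyp18a1 and 88.2 for Cyp9a20. Among genes with a count it was 46.7 and 93.1, and among protein-coding genes 42.4 and 92.4. For Cyp6ae2 these percentiles were 65.1, 68.6 and 65.8, against 73.5 on TPM among all genes. Its shifts were below its SD of 11.2 between libraries. The BCV of Cyp18a1 in DESeq2 was 0.0001, its lower limit. Leaving out each replicate gave 2001 to 5205 called genes, a BCV of 0.00988 to 0.0366 for Cyp9a20 and of 0.240 to 0.727 for Cyp6ae2, a gap of 1.41 to 3.14 for Cyp6ae2, and 705 to 1033 genes with a 2-fold gap, a measure chosen after seeing the data. No contrast between groups was possible because the libraries form 1 group. The planned promoter motif and protein identity comparisons were not run, because no sequence was used here.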
